A study of Mus musculus with 8 samples.

Results

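Macrophage transcripts were followed in cultures of primary mouse skin fibroblasts through 10 marker genes: Lyz2, Cd68, C1qa, C1qb, C1qc, Fcer1g, Tyrobp, Laptm5, Csf1r and Ctss. Every row of the normalized table that carried one of these symbols was taken, which gave 11 rows among 25697, Csf1r having a pair of probes and each other gene a single one. The genes were chosen on values from these same arrays. Some of them had already been seen to be high on the array of 1 mouse. The levels, the order of the arrays, the covariation and the strain differences of these genes are therefore given below as a description and not as a test.

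The study asked how a mutation in the mitochondrial gene for NADH dehydrogenase subunit 2, Nd2, changes the transcriptome of aged skin fibroblasts. Fibroblasts from 4 Nd2-mutant mice of the strain C57BL/6J-mtALR/LtJ (males 28 and 32, females 34 and 35) were compared with fibroblasts from 4 control mice of the strain C57BL/6J-mtAKR/J (males 16 and 17, females 15 and 37) of the same age, 12 months. Both strains are conplastic, with the C57BL/6J nuclear genome and the mitochondrial DNA of a donor strain. By the study's account the mitochondrial genomes differ at a single position, where a nucleotide exchange replaces leucine with methionine in Nd2. The cells were released from skin with Liberase, grown in DMEM with fetal calf serum and used at passage 1. The methods describe no sorting step, and each mouse gave 1 array.

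Macrophages of the skin engulf debris and microbes, present Fc receptors for bound antibody and depend on the CSF1 receptor for survival. They make all chains of C1q, the recognition subunit that starts the classical complement pathway, and hold large lysosomes rich in cathepsins. Many of the genes that mark them are driven by PU.1, a myeloid transcription factor of the ETS family. Enzymatic digestion of dermis releases such cells together with fibroblasts.

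The label of the cultures as fibroblasts was borne out by fibroblast genes, of which 13 were on the array and all 18 rows were detected. Col1a1, a chain of type I collagen, had intensities of 7364 to 11596 on the 8 arrays. Arrays detected 10663 to 11350 rows each at a detection p below 0.01. The array of control mouse 15 stood apart over the whole table, where the correlation with each other array averaged 0.934 against 0.963 to 0.974 for the rest, and it held the highest value for 26.2% of the rows detected on at least 1 array. The array of Nd2-mutant mouse 35 did not stand apart in this way, its correlations averaging 0.969, but it did in the macrophage genes, so values are given with and without each of these arrays where a result rests on it.

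Promoters of the marker genes are shown first, because PU.1 is known to bind many macrophage promoters and the genes were followed as a group. RefSeq promoters of the build GRCm38.p6 were matched for 7 of the 10 genes, and the 250 bases before the start site were searched on both strands for GAGGAA, the core letters of a PU.1 site, and for TGAGTCA, the AP-1 element bound by Fos and Jun. The motifs do not overlap each other in the sequences shown, matches are in capitals, and TTCCTC is GAGGAA read on the other strand. The first of the promoters shown is that of Cd68 at chr11:69666171-69666420, minus strand, followed by C1qb at chr4:136886201-136886450 and C1qc at chr4:136892915-136893164, both on the minus strand. Laptm5 at chr4:130913066-130913315 and Ctss at chr3:95526536-95526785 lie on the plus strand, and Lyz2 at chr10:117282273-117282522 on the minus strand.
Cd68: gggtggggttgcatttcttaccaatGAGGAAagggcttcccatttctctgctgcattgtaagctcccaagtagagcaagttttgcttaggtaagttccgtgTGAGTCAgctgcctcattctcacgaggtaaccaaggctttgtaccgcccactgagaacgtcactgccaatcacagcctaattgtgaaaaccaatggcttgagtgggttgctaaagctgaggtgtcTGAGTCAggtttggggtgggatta
C1qb: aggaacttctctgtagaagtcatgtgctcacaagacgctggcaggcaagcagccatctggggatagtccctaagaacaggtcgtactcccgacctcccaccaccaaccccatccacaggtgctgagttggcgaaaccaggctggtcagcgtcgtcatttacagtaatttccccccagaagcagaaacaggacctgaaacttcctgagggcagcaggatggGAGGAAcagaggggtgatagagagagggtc
C1qc: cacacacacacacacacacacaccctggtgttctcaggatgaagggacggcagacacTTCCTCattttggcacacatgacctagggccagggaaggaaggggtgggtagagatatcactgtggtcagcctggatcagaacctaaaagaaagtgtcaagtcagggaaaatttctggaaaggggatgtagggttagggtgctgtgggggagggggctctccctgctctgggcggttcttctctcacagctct
Laptm5: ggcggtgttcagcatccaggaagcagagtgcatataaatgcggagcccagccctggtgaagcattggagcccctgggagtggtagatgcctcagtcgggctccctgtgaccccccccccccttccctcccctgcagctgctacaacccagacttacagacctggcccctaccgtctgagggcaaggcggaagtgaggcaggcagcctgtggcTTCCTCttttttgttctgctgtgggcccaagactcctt
Ctss: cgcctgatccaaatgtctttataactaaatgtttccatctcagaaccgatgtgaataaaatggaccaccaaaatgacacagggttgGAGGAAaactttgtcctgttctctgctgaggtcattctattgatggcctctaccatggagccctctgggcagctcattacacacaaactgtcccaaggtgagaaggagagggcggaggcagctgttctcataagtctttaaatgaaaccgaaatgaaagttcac
Lyz2: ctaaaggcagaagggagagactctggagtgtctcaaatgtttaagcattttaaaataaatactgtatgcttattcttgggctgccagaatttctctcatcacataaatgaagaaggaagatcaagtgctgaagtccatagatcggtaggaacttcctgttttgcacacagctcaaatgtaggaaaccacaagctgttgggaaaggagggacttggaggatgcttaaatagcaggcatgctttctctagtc
GAGGAA was found in 5 of the 7 promoters, those of C1qb, C1qc, Cd68, Ctss and Laptm5, and in 23.3% of the 32851 promoters of the same length. TGAGTCA was found in the promoter of Cd68, at 2 places, and in 4.46% of all promoters. The promoters of Lyz2 and Fcer1g held neither string of letters. A match of letters is a description of the sequence and not a measured binding site.

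Lyz2 encodes lysozyme M, the bacterial wall hydrolase of macrophages and neutrophils. Its intensities were 78.3, 67.0, 102 and 344 in Nd2-mutant mice 28, 32, 34 and 35, and 20.7, 11.3, 152 and 47.4 in control mice 15, 16, 17 and 37. Mouse 35 was highest, 2.26 times the next array, and control mouse 17 lay above the other 3 mutant mice, so the strains overlapped. In RNA of whole cultures, fewer cells of a type and less RNA per cell cannot be told apart.

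The table holds further lysozyme rows under older symbols, which the choice by symbol left out of the 11 rows. The symbol Lyzs, now Lyz2 in RefSeq, had 2 probes, of which ILMN_2766780 was not detected on any array. The other, ILMN_2939681, read 114, 121, 123 and 423 in mice 28, 32, 34 and 35, and 173, 87.1, 176 and 80.8 in mice 15, 16, 17 and 37. The symbol Lyz, now Lyz1, read 828, 842, 950 and 3015 in the mutant mice and 1013, 405, 977 and 510 in the controls in the same order. Lyz1 is the neighbour and near copy of Lyz2, mostly known from Paneth cells of the gut, and cross-hybridization between the copies was not tested. All 3 detected lysozyme rows were highest in mouse 35, but mouse 15 was near the bottom in the Lyz2 row and among the upper arrays in the other rows.

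Cd68 encodes macrosialin, a heavily glycosylated protein of macrophage lysosomes. It read 16.7, 16.1, 20.2 and 145 in mice 28, 32, 34 and 35, and 25.5, 5.55, 25.7 and 9.14 in mice 15, 16, 17 and 37. Mouse 35 was 5.64 times the next array, mouse 17, while the other 3 mutant mice lay inside the range of the controls. The row was not detected in mice 16 and 37.

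Ctss encodes cathepsin S, the lysosomal protease that trims the invariant chain of MHC class II. Its signal stayed near background, with 6.398, 7.497, 6.974 and 16.05 in mice 28, 32, 34 and 35 and 8.492, 5.850, 9.833 and 3.195 in mice 15, 16, 17 and 37, and it was detected in mouse 35 alone. Laptm5, a lysosomal membrane protein of blood cells, was bright on all 8 arrays. It read 161, 122, 140 and 673 in mice 28, 32, 34 and 35, and 443, 148, 168 and 110 in mice 15, 16, 17 and 37. Here control mouse 15 was second, and the other 6 mice lay between 110 and 168. Laptm5 was the only member with mouse 15 in second place.

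The C1q chains come from 3 neighbouring genes on chromosome 4 that are usually expressed together. C1qb read 26.0, 20.9, 26.3 and 212 in mice 28, 32, 34 and 35, and 14.2, 0.834, 30.8 and 15.6 in mice 15, 16, 17 and 37. C1qc read 11.1, 6.30, 16.5 and 147 in the mutant mice and 13.2, 6.34, 31.4 and 13.1 in the controls in the same order. Mouse 35 was 6.90 times the next array for C1qb and 4.69 times for C1qc, and mouse 17 was second for both. C1qa departed from its neighbours, with 12.2, 6.67, 4.71 and 15.1 in mice 28, 32, 34 and 35 and 5.16, 7.96, 1.52 and -2.96 in mice 15, 16, 17 and 37. It was detected in mice 28 and 35 only, and mouse 35 was just 1.23 times mouse 28, so the C1qa row carried little signal above background on any array.

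Fcer1g encodes the common gamma chain through which activating Fc receptors signal. It read 45.8, 42.3, 51.0 and 331 in mice 28, 32, 34 and 35, and 63.5, 21.1, 71.6 and 33.6 in mice 15, 16, 17 and 37. Mouse 35 was 4.62 times mouse 17, and all 8 arrays detected the row. Tyrobp, the adaptor DAP12 that pairs with TREM2 and related receptors, was detected in mouse 35 alone, with 31.4 there and 1.69 to 9.37 in the other 7 mice.

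Csf1r, the receptor that macrophages need for growth and survival, had a narrow range. Its detected probe, ILMN_2710819, read 28.03, 15.3, 34.2 and 39.5 in mice 28, 32, 34 and 35, and 32.5, 27.6, 32.1 and 36.9 in mice 15, 16, 17 and 37. Mouse 35 was the highest by a factor of 1.07 over control mouse 37, and all but mouse 32 lay within a narrow band. The other probe, ILMN_1230485, was not detected on any array.

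**Figure D1:**
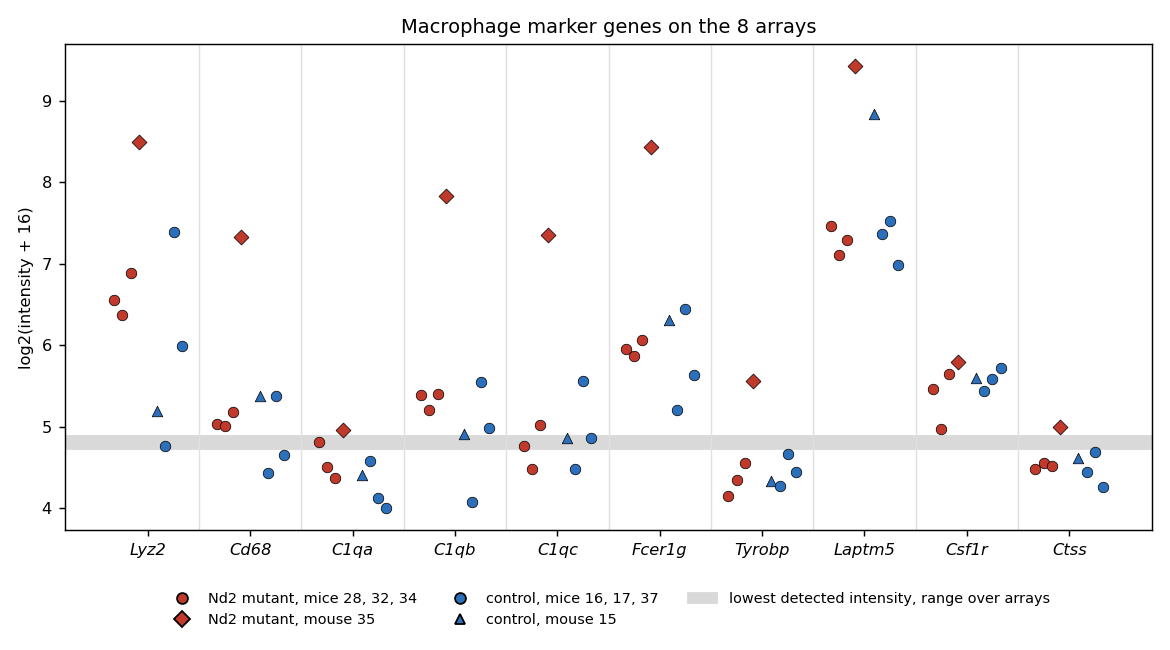
Intensity of the 10 detected rows of the macrophage marker genes on the 8 arrays, as log2(intensity + 16), with each point 1 mouse. Nd2-mutant mice are red and controls blue, the diamond is mouse 35 and the triangle mouse 15, and the grey band spans the lowest detected intensity of each array, 10.5 to 13.6. Mouse 35 is the highest point in all 10 columns, narrowly so for C1qa and Csf1r.

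In all 10 rows detected on at least 1 array the highest value was that of mouse 35, which held the highest value in 9.96% of the 12937 detected rows of the table. The genes were chosen with this pattern in view, so nothing is read from the contrast. Values just inside and just outside it were those of Csf1r, at 39.5 against 36.9, and of the undetected Csf1r probe, whose highest value was 1.19 in another mouse. Mouse 17 was second in 7 of the 10 rows, and mouse 16 was lowest in 4 and mouse 37 in 3. Summed over the 10 rows, intensities were 387, 308, 410 and 1955 in mice 28, 32, 34 and 35, and 630, 238, 532 and 275 in mice 15, 16, 17 and 37. Mouse 35 detected all 10 rows, the other mutant mice 6 to 8 and the control mice 3 to 7.

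Strain differences were taken from limma on log2(intensity + 16), fitted over the 10414 rows that every array of one strain or the other detected. Of the members, 6 passed this filter, and of these Lyz2, Cd68 and C1qb passed only through the mutant arrays, on which they had to be detected, so that counts over the 6 carry that choice. C1qa, C1qc, Tyrobp, Ctss and the second Csf1r probe did not pass. None of the 6 had an adjusted p below 0.05, as did 0% of all rows fitted, with a smallest adjusted p of 0.639 over the table in this limma fit with Benjamini-Hochberg adjustment. None of the 6 had an unadjusted p below 0.05 either, against 7.63% of all rows, and in none did the 4 values of one strain lie beyond those of the other, against 4.37%. The strain comparison had helped to choose the genes, and nothing is read from these counts.

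The fitted difference, Nd2 mutant minus control on the log2 scale with its standard error and n = 4 per strain, was 1.24 ± 0.58 for Lyz2 and 1.08 ± 0.54 for C1qb. It was 0.68 ± 0.48 for Cd68 and 0.68 ± 0.53 for Fcer1g. Laptm5 had 0.14 ± 0.53 and Csf1r -0.12 ± 0.19. Of the 6 differences 5 were above 0, with a median of 0.68 next to 0.00 over all rows fitted. Lyz2, Cd68 and C1qb passed the filter only through the mutant arrays, and the genes were chosen on these arrays. Nothing is therefore read from the count or the median.

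Mouse 35 held the highest value in all 6 rows by the way the genes were chosen, so leaving it out had to lower every difference. Without it the difference was 0.77 ± 0.52 for Lyz2, 0.45 ± 0.30 for C1qb, 0.11 ± 0.25 for Cd68 and 0.06 ± 0.29 for Fcer1g. The other detected Lyz2 probe, listed as Lyzs, had 0.40 ± 0.40 on all arrays and -0.03 ± 0.27 without mouse 35. The Lyz1 row had 0.81 ± 0.43 and 0.36 ± 0.31 in the same settings. The probes of Lyz2 thus differed in whether a difference was left without mouse 35. Laptm5 turned to -0.39 ± 0.38, and Csf1r was at -0.23 ± 0.19. Without control mouse 15, the other array that stood apart, Laptm5 had 0.53 and Lyz2 1.03. The mean log2 level of the 6 rows was 6.42 ± 0.98 in Nd2-mutant and 5.81 ± 0.48 in control fibroblasts (SD, n = 4), a difference of 0.62. This became 0.13 without mouse 35, 0.69 without mouse 15 and 0.21 without both, the last being a setting added after the values were seen. Without mouse 35 the mean intensity of Cd68 in the mutant mice was 17.7 ± 2.16 (SD, n = 3), next to 16.5 ± 10.6 (SD, n = 4) in the controls, and that of Fcer1g 46.4 ± 4.39 next to 47.4 ± 24.0.

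**Figure D2:**
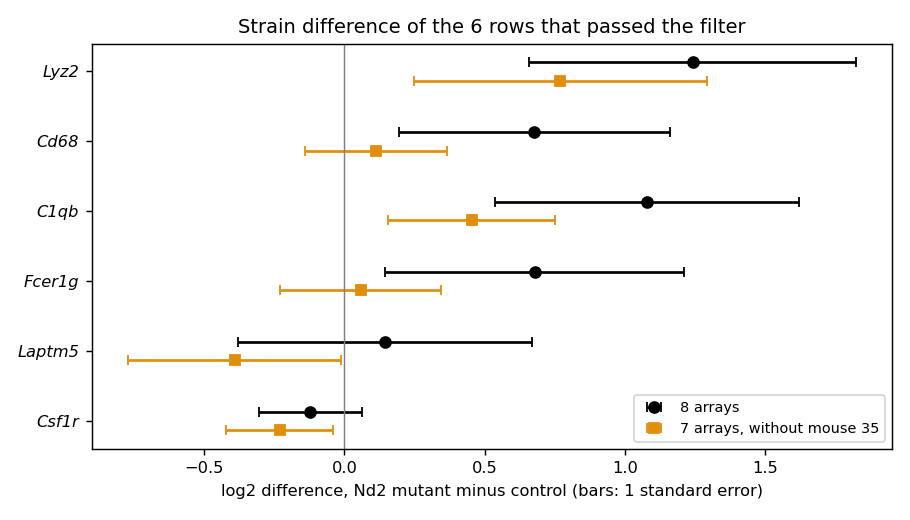
Difference between Nd2-mutant and control fibroblasts (x axis, log2, mutant minus control) for the 6 rows that passed the filter, with bars of 1 standard error. Black points use 8 arrays and orange squares the 7 arrays without mouse 35; Lyz2 moves from 1.24 to 0.77 and Laptm5 from 0.14 to -0.39.

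Mouse 35 is female, and the strain difference was also fitted within each sex. In females the difference was 2.10 for Lyz2, 1.67 for C1qb, 1.28 for Fcer1g, 1.24 for Cd68, 0.45 for Laptm5 and 0.06 for Csf1r, and in males 0.39, 0.49, 0.07, 0.11, -0.16 and -0.30 for the same genes. The interaction of strain and sex had an adjusted p of 0.9999 for each of the 6 rows in limma with Benjamini-Hochberg adjustment over all rows. With 2 mice per sex and strain, these values rest on few arrays.

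The members varied together over the 8 cultures, a pattern for which they had been chosen, so the correlations restate that choice and are no test of it. The correlation of each gene with the mean of the other 9 (Pearson, log2 scale, n = 8 arrays, which share the normalization) was 0.99 for Fcer1g and Cd68, 0.97 for C1qb and C1qc, 0.93 for Tyrobp and 0.89 for Ctss. It was 0.78 for Lyz2, 0.73 for Laptm5, 0.47 for C1qa and 0.44 for Csf1r. Without mouse 35 (n = 7), Fcer1g kept 0.95 and Cd68 0.92, and C1qb and C1qc had 0.79 and 0.77. The other values were 0.65 for Ctss, 0.52 for Lyz2, 0.49 for Tyrobp, 0.16 for Csf1r, 0.09 for Laptm5 and -0.30 for C1qa.

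Some of the genes followed the same order among the 7 cultures that were not mouse 35. Cd68 and Fcer1g had a correlation of 0.98 and a Spearman rho of 1 over these 7, and Lyz2 and C1qb a correlation of 0.92 and a rho of 1. These pairs had the highest correlations of all 45 without mouse 35 and were picked out after their values were seen. The order shared with C1qb was that of the member row of Lyz2 and not of the gene's other detected probe, listed as Lyzs. That probe read 173 in mouse 15 and 176 in mouse 17, where C1qb read 14.2 and 30.8. Of the 45 pairs of members, 32 had a correlation above 0.5 over 8 arrays and 18 without mouse 35, and the median pair fell from 0.79 to 0.38. C1qa went against Tyrobp, at -0.80, and against C1qc, at -0.56, but most of its values were below detection. Leaving out mice 16 and 35, the arrays farthest from the median, left 0.89 for Fcer1g, 0.83 for Cd68, 0.73 for C1qc and 0.59 for C1qb over 6 arrays, and 0.17 for Lyz2.

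**Figure D3:**
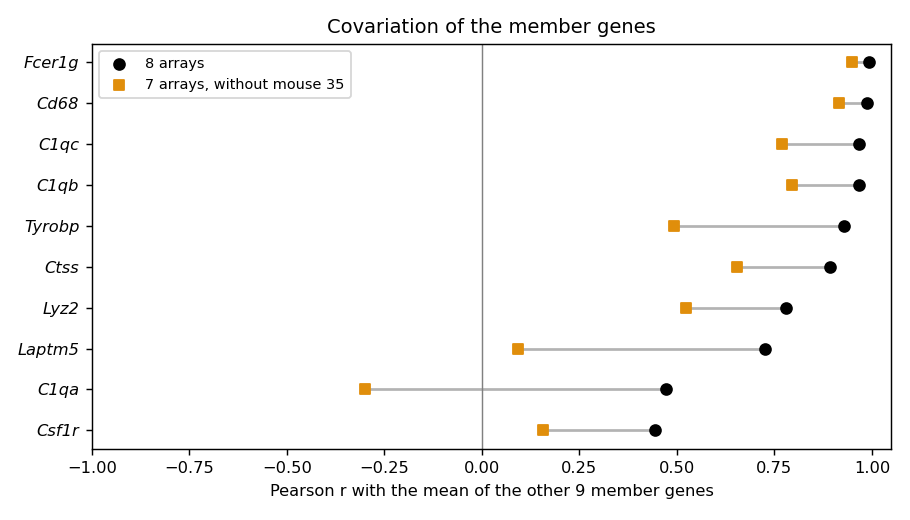
Pearson correlation (x axis) of each macrophage marker gene with the mean of the other 9 on the log2 scale, over 8 arrays (black) and over the 7 without mouse 35 (orange). Fcer1g and Cd68 stay above 0.9 without mouse 35, and C1qa falls from 0.47 to -0.30.

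Genes listed under symbols other than those of the 10 members were ranked by their correlation with the member mean. They were taken from 1062 genes with an SD of at least 0.5 on the log2 scale. The 20 with the highest correlation had values of 0.81 to 0.99 over the 8 arrays, and all of them were highest in mouse 35, the array that dominates the mean. Without mouse 35 their correlations ranged from -0.49 to 0.94, with a median of 0.73, which describes genes picked on the same arrays and is no separate evidence that they follow the members. The first was LOC100048556, annotated on the array as similar to monocyte chemoattractant protein-5, with 197 in mouse 35 and 5.95 to 33.7 elsewhere and a correlation of 0.94 without that mouse. Lyz followed the members at 0.96. Lyzs, at 0.96, is another probe of the member Lyz2 and not a gene outside the 10, so its own gene is part of the mean.

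Of the 20 genes, 12 were in one of the lists of known markers, 6 of them in that of macrophage identity. Ms4a6d, a tetraspan membrane protein of macrophages, read 127 in mouse 35 and 7.03 to 29.3 in the others. Mrc1, the mannose receptor of tissue macrophages, read 107 and at most 16.2. Lilrb4, an inhibitory receptor, read 56.6 and at most 13.6, Ms4a7 72.0 and at most 19.1, and the folate receptor Folr2 39.8 and at most 8.97. Nckap1l, an actin regulator of blood cells, read 37.4 in mouse 35 and was detected nowhere else, and so was 4732429D16Rik, now Cd300ld, at 38.1. Trem2, the lipid receptor that signals through DAP12, read 52.3 and at most 26.7, and the C-type lectin Clec4d 63.8 and at most 19.9. The chemokines Ccl3 and Ccl4 read 30.7 and 125 in mouse 35, and Ccl4 had its next value, 52.7, in mouse 15. Cd52 read 31.6 in mouse 35 alone above detection, and Coro1a 80.3 against at most 27.4, with a correlation of -0.49 once mouse 35 was left out. Flrt2, Serpina3g, Tek and Nrap, the remaining 4, are not macrophage genes as commonly listed, and in these rows the second place was held by mouse 15 in 3 and by mouse 28 in 1.

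**Figure D4:**
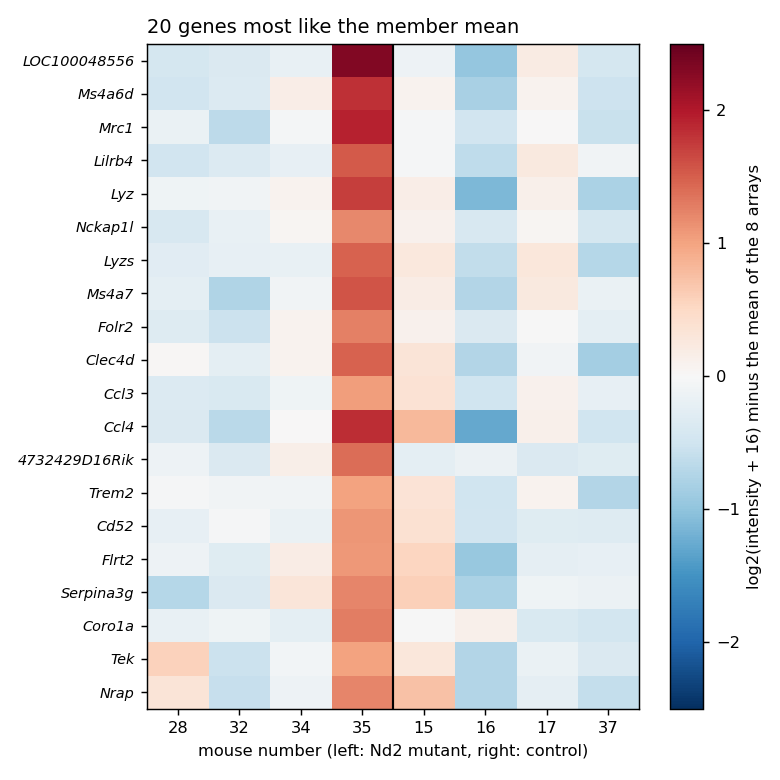
The 20 genes most like the mean of the macrophage markers (rows, most like at the top) in the 8 mice (columns, Nd2 mutant left of the line), coloured by log2(intensity + 16) minus the mean of the 8 arrays. Mouse 35 is the reddest column in all 20 rows. Lyzs is another probe of the member Lyz2.

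Other genes known from macrophages were read from a list of markers. Of 30 further genes of macrophage identity, 28 were on the array and 14 were detected, in 18 rows, of which 13 were highest in mouse 35 and 4 in mouse 15. Cd14, the lipopolysaccharide co-receptor, read 32.6, 40.2, 53.3 and 97.4 in mice 28, 32, 34 and 35 and 37.2, 38.8, 56.2 and 26.4 in mice 15, 16, 17 and 37. Gpnmb, a glycoprotein also made by other skin cells, read 1305 in mouse 35 but 1456 in mouse 15. Both probes of Adgre1, the F4/80 antigen listed on the array as Emr1, were detected in mouse 35 alone, at 27.4 and 34.3, and were picked out after their values were seen. The other 14 matched genes were not detected on any array, among them Itgam (CD11b), Spi1 (PU.1 itself), Cx3cr1, Cd163, Msr1 and Siglec1. None of the 5 rows fitted had an unadjusted p below 0.05, next to 7.63% of all rows fitted. Of the 5 differences, 4 were above 0, and the median was 0.41. Among these rows, Trem2, Ms4a6d and Pf4, listed as Cxcl4, passed the filter only through the mutant arrays. The count and the median carry that choice, and nothing is read from them.

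Genes that work with the members in Fc receptor and DAP12 signalling gave 10 detected rows, of which 7 were highest in mouse 35. Sirpa, an inhibitory receptor that fibroblasts also express, read 1827 in mouse 35 and 2062 in mouse 15, and Plcg2 36.6 and 45.0. The Fc receptors Fcgr2b and Fcgr3, picked out after their values were seen, were detected in mouse 35 alone, at 30.0 and 30.9. None of 3 rows fitted had an unadjusted p below 0.05, next to 7.63% of all rows fitted. Of these, Trem2 passed the filter only through the mutant arrays and Plcg2 only through the control arrays. Nothing is read from the count. Of genes shared by all leukocytes, 11 rows were detected and 8 were highest in mouse 35, but Ptprc (CD45) was not detected on any array. Arhgdib and Cd53 were detected everywhere and highest in mice 34 and 32. None of the 4 leukocyte rows fitted had an unadjusted p below 0.05, next to the same 7.63%. Among them, Lst1 passed the filter only through the mutant arrays, and nothing is read from this count either.

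The share of detected rows with the highest value in mouse 35 was 72.2% for macrophage identity, 70% for Fc receptor and DAP12 signalling and 72.7% for the leukocyte list. It was 40.0% for MHC class II and dendritic cells, 33.3% for macrophage activation, 21.9% for lysosomal genes and 9.09% for the other complement genes. These lists were drawn up with results of these arrays known and share genes and arrays with the members, so the shares are a description and nothing is read from their distance to the share over all detected rows. In 14 of the 37 different rows of the first 3 lists, mouse 35 was the only array that detected the row.

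CSF1, a ligand of the CSF1 receptor, is made by fibroblasts and other stromal cells. Csf1 was detected in all cultures, at 718, 1150, 1331 and 1064 in mice 28, 32, 34 and 35 and at 1879, 1317, 970 and 954 in mice 15, 16, 17 and 37, with a difference of -0.24 ± 0.25 (log2, SE). Il34, the gene of the other ligand, listed as 2010004A03Rik, stayed between 10.5 and 22.7. Neither was highest in mouse 35.

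Complement genes other than C1q were mostly highest in mouse 15. Of 11 detected rows, 7 were highest in mouse 15 and 1 in mouse 35. C2 read 673 in mouse 15 and 205 in mouse 35, with 87.8 to 145 elsewhere, and C4b 443 and 242, with 41.4 to 98.5 elsewhere. C3, the central component, read 1415 in mouse 15 and 887 in mouse 35, and Serping1, the C1 inhibitor, 2994 and 2383. Of the 10 rows fitted, 1 had an unadjusted p below 0.05, next to 7.63% of all rows fitted. It was a row of C1s, a protease of the C1 complex. Its difference was 0.56 ± 0.25, and its adjusted p in limma was 0.639.

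Lysosomal genes, which fibroblasts express too, gave 32 detected rows, with 15 highest in mouse 15 and 7 in mouse 35. Ctsb, cathepsin B, varied little, from 3438 to 4902. Of the 29 rows fitted, 3 had an unadjusted p below 0.05, all with a difference above 0, where 7.63% of all rows fitted had such a p in either direction and none passed the adjustment. One was Lgmn, a lysosomal protease picked out after its values were seen, which read 1219 in mouse 35 and 461 to 810 elsewhere. Among genes of macrophage activation, 12 rows were detected and 4 were highest in mouse 35, while Nos2, Tnf, Il1b and Il10 were detected on no array. Of the 7 rows fitted in that list, 1 had an unadjusted p below 0.05, next to 7.63% of all rows fitted. It was that of the chemokine Ccl9, with a difference of 0.81 ± 0.29 and an adjusted p of 0.639 in limma. Ccl9 was highest in mouse 28, at 522, and read 304 in mouse 35. Spp1, made by many stromal cells, was highest in mouse 17, at 3721, and Tlr4 in mouse 35, at 124 against at most 71.9.

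Markers of other blood cells were mostly at background. No B cell row was detected out of 11, 2 of 14 neutrophil rows were, Camp and Mpo, and neither was highest in mouse 35. Of 15 T and NK cell rows, 2 were detected, Lck and Thy1, the latter a fibroblast antigen in mouse skin with 8246 to 12618. Hdc was the one detected mast cell row, at 26.4 in mouse 15. Of 18 rows for MHC class II and dendritic cells, 5 were detected, H2-Ab1 at 29.6 to 105 by its brightest probe, and H2-Aa, H2-Eb1 and Cd74 were not detected on any array. Cd1d1 was the only detected row of the Langerhans cell list, and Cd207 was not detected.

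Markers of skin cells other than fibroblasts were read for comparison, mouse 35 being highest in 9.96% of all detected rows. Of 10 detected endothelial rows, 8 were highest in mouse 15. Emcn, a sialomucin of vessels, had a difference of -1.20 ± 0.27, and its adjusted p in limma was 0.639. Its values did not overlap between the strains, as was so for 4.37% of all rows fitted. Other listed rows without overlap were 2 of Mcam, at -1.16 ± 0.28 and -1.03 ± 0.27. The fibroblast list held 1 row of Dcn, at 0.82 ± 0.28, and Lum, at 0.88 ± 0.31, higher in the mutant. The other and brighter row of Dcn had 0.12 ± 0.24, and its values overlapped between the strains. Keratinocyte rows were highest in mouse 35 in 0 of 7 cases, melanocyte and Schwann cell rows in 0 of 5 and smooth muscle and pericyte rows in 1 of 11. Fibroblast rows were highest in mouse 35 in 3 of 18 cases and in mouse 15 in 9. Over all lists besides the members, 104 rows were fitted, of which 7 had a difference above 0 and 8 one below 0 at an unadjusted p below 0.05, next to 7.63% of all rows fitted in either direction, and none had an adjusted p below 0.05. The 8 below 0 were 4 of the 10 rows of smooth muscle and pericytes, all 3 of melanocytes and Schwann cells and 1 of the 7 endothelial rows. A row of Gusb above 0 passed the filter only through the mutant arrays, and a row of Ednrb below 0 only through the control arrays. What part the makeup of the cultures had in the values of mouse 35 was not tested.

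**Figure D5:**
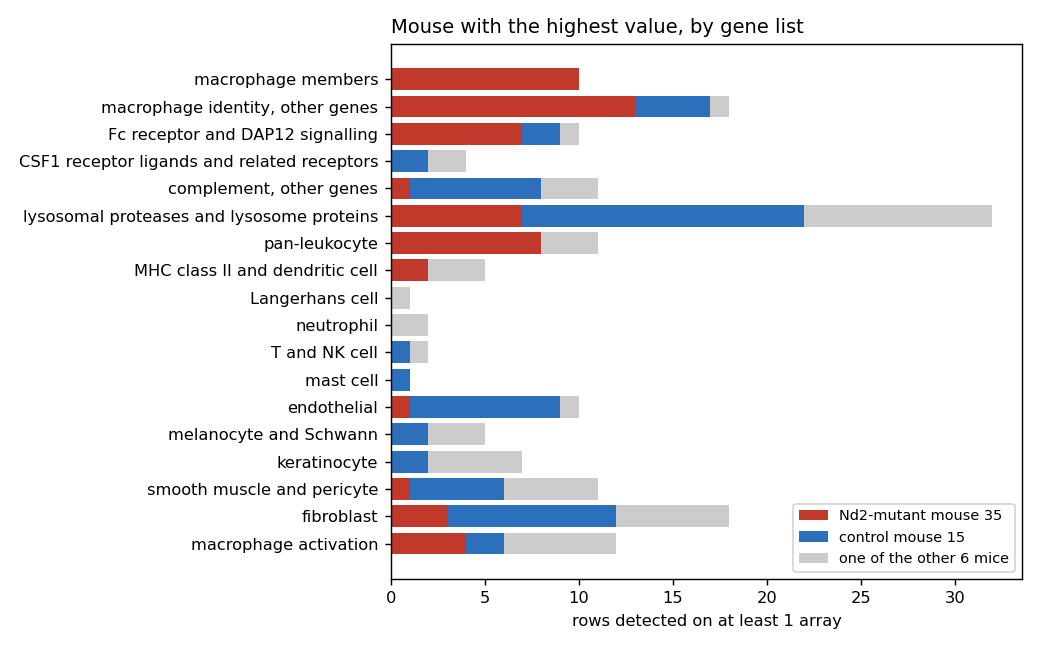
Number of rows detected on at least 1 array (x axis) in each gene list, divided by whether the highest value was in Nd2-mutant mouse 35 (red), control mouse 15 (blue) or one of the other 6 mice (grey). The macrophage members are all red by the way they were chosen, and the lists of macrophage identity, Fc receptor and DAP12 signalling and leukocytes hold 13 of 18, 7 of 10 and 8 of 11 red rows.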

How the data were processed

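RNA of 8 fibroblast cultures was hybridized to MouseRef-8 v2.0 BeadChips (Illumina). Per the study's methods and the labels' processing notes, the authors extracted the intensities in GenomeStudio, quantile normalized them between arrays and subtracted background, so the deposited intensity values are linear and can be negative. The deposited detection p-values compare each probe with negative control beads. Version, genome build and annotation are not given in the sources used here. Both deposited tables had the same bytes, so no values from before normalization were analysed here. Quantile normalization gives each array nearly the same distribution, so a shift of the whole array cannot be seen.

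Values at or below 0 (26.2%) were set to 0, 16 was added and log2 taken, which understates changes of dim rows. Rows with a detection p below 0.01 on all 4 arrays of at least 1 strain were fitted with limma 3.58.1 in R 4.3.3 (lmFit, eBayes, strain as the only term) with Benjamini-Hochberg adjustment. Descriptions used Python 3.11.15 and scipy 1.17.1. The script was tested on simulated data. Groups came from the labels; nothing in them says that a mouse was sampled more than once. With 4 arrays per strain, the number of arrays limits the precision, and the brightness of different probes was used to rank rows for naming and to sum rows per array, not to compare amounts of RNA between genes.

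The 10 genes and all lists were chosen with earlier results of these data known. Named besides the members were, by rule, the 4 detected rows with the highest maximum in each of 18 lists (245 genes, 231 matched to the array through symbols or RefSeq synonyms), tested rows whose strains did not overlap, and the 20 genes most like the member mean, though not every such row is described. Promoters came from RefSeq (GRCm38.p6). Alternatives varied the pseudocount (1 and 50), floor, filter, centring, sex term, array weights, the methods' t-test and the arrays used.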

Additional observations from a re-analysis of the deposited data

Results flagged for a closer look

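Within the Nd2-mutant mice, mouse 35 lay apart from the other 3 in 5 marker genes and in their mean. The gap from mouse 35 to the nearest mutant mouse, as a share of the range of the 4 mice on the log2 scale, was 0.93 for Cd68, 0.92 for C1qb, 0.92 for Fcer1g, 0.87 for Ctss, 0.85 for Laptm5 and 0.85 for the mean of the 6 rows that passed the filter. Dixon's criterion for 4 samples picked out these values. It picks out about 1 in 20 groups by chance where genes are not chosen on their values, but these genes were chosen with the array of mouse 35 in view, so the shares restate that choice and are no test of it.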

How the results depend on the processing

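The count of genes with an adjusted p below 0.05 over the whole table was 0 in the main setting and in 16 of 18 alternatives, with 3 without a filter on detection and 1 by the methods' t-test. Of the marker rows, 0 had an unadjusted p below 0.05 in 15 of 17 alternatives, and 0 to 2 when 1 mouse was left out: Lyz2 and C1qb passed without mutant mouse 32 and without control mouse 17, with no adjusted p below 0.276. The member rows of Lyz2, Cd68, C1qb and Fcer1g were above 0 in all 17 alternatives run for them. The other detected Lyz2 probe, listed as Lyzs, had -0.03 without mouse 35. Laptm5 turned to -0.39 without mouse 35 and to -0.09 without control mouse 37, within a range up to 0.53 when 1 mouse was left out, and Csf1r to 0.045 without mutant mouse 32, within a range down to -0.23. The difference of the mean of the 6 rows ranged from 0.13, without mouse 35, to 0.84 when 1 mouse was left out, and up to 0.91 over all alternatives. The median correlation of the members with the mean of the others, 0.91, ranged from 0.59, without mouse 35, to 0.95. In the other lists, 7 of 104 rows higher at an unadjusted p below 0.05 became 14 of 331 without the filter, a smaller share, and 3 to 10 when 1 mouse was left out, with 3 without mouse 28 or 16 and 4 without mouse 35, and the 8 lower rows became 7 to 10. No paired analysis was possible because no number belongs to a mouse of each strain. Blocking on the chip, and normexp with quantile normalization of raw intensities, need chip positions and raw values and were not run. Signal over background limits C1qa, Tyrobp and Ctss, whose values lie below or near the lowest detected intensity, except for Tyrobp in mouse 35 at 31.4. The limit holds in part for C1qc, detected on 5 arrays, Cd68, on 6, and C1qb and Lyz2, on 7 each.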
